A study of Mus musculus with 18 samples.

Results

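Xbp1 and 9 genes for proteins that fold or clear proteins in the endoplasmic reticulum (ER) were followed across 2 mouse embryonic fibroblast lines and 3 times of oxidative stress. The 10 genes were fixed by name, as the transcription factor gene Xbp1 and the chaperone, oxidoreductase and quality-control genes Hspa5, Hsp90b1, Calr, Pdia4, Pdia6, Dnajb9, Sdf2l1, Creld2 and Herpud1. Their rows were taken from 3 tables, 1 for each time, which together list 10110 single gene symbols. Of the 10 genes, 9 were listed at least once, with 7 at 0 min, 9 at 15 min and 8 at 120 min. Sdf2l1 was in none of the tables. The lines were immortalized fibroblasts, either wild type (WT) or carrying eIF2α S51A, the translation factor subunit whose stress-phosphorylated serine is replaced by alanine. Cells of each line were untreated (0 min) or given 500 µM hydrogen peroxide for 15 or 120 min, which makes 6 groups, and the labels name 3 samples in each (18 samples), whereas the series text speaks of duplicates, so the number of samples behind each q-value is uncertain. With a single line for each genotype, the effect of the mutation and that of the line cannot be told apart. The tables hold 1 FPKM value (fragments scaled to transcript length and library size) for each group, so the spread between samples, the depth and a standard deviation are unknown. The labels do not say whether the samples of a group were separate cultures, so the q-values may reflect technical spread alone.

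Secreted and membrane proteins fold inside the ER, helped by chaperones and by enzymes that form disulfide bonds. When unfolded proteins accumulate, the sensors Ire1, Atf6 and Perk start the unfolded protein response. Ire1 cuts a short intron out of Xbp1 RNA, which changes the reading frame and yields the active transcription factor. Active Xbp1 and the cleaved form of Atf6 bind promoters of ER chaperone genes. Perk phosphorylates eIF2α at the serine that the S51A line lacks, which slows general translation and favours translation of the factor Atf4.

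The stretch of Xbp1 RNA that Ire1 removes is shown because the deposited values are for the whole gene and do not tell the cut from the uncut form. It was found in all 3 coding GENCODE transcripts of Xbp1 as the bases between a pair of sites with the letters CNGCAGN, each cut before its letters CAGN. The longest transcript held 2 pairs of such sites at this distance, and each of the others held 1. The stretch shown lies between the pair common to all 3. It lies within coding sequence at chr11:5524279-5524304 (mm10, plus strand), in exon 4 of 5 of the longest transcript. The capitals mark the 26 bases between the cuts.
Xbp1: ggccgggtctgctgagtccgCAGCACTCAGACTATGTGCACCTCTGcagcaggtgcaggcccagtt

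Promoter stretches of 6 genes are shown because they hold the letters of an ER stress element, the sequence through which Atf6 and Xbp1 are known to act on chaperone genes. The 250 bases before each RefSeq gene start (GRCm38, the same build as mm10) were searched on both strands. The ER stress element, searched as CCAAT, any 9 bases and CCACG, matched upstream of Hspa5, Hsp90b1, Calr, Pdia6 and Creld2, 5 of the 10 genes. Across all promoters in the same reference it matched in 35 of 27025 genes (0.130%). Since the element is already known from ER chaperone genes, this contrast is a description and no independent result. A second form, searched as ATTGG, any 1 base and CCACG, matched upstream of Herpud1 and in 10 of 27025 genes (0.0370%). Each stretch runs 5′ to 3′ on the strand of its gene, and the capitals mark the matched element, which reads on the opposite strand in Calr, in Creld2 and in the later match of Hsp90b1.
Hspa5, chr2:34771985-34772083, plus strand: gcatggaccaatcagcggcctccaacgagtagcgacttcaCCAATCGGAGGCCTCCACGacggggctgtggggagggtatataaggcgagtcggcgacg
Hsp90b1, chr10:86705493-86705694, minus strand: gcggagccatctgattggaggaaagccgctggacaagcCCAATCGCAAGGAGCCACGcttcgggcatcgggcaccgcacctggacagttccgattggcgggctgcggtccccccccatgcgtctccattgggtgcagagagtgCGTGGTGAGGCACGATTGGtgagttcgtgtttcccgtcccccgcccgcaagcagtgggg
Calr, chr8:84847035-84847133, minus strand: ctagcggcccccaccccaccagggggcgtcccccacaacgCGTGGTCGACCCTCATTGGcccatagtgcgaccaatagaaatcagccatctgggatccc
Pdia6, chr12:17266451-17266549, plus strand: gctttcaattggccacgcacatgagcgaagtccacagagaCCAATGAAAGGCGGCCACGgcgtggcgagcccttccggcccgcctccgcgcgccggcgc
Creld2, chr15:88819480-88819578, plus strand: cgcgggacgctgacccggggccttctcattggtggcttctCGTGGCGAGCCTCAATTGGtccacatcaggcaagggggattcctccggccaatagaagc
Herpud1, chr8:94386337-94386427, plus strand: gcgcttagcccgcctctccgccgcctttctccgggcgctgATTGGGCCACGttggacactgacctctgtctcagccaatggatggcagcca

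Relative to the RefSeq start, the element spanned positions -65 to -47 in Hspa5, -98 to -80 in Pdia6, -126 to -108 in Creld2 and -162 to -144 in Calr. Hsp90b1, the only member with more than 1 exact match to this element, had one at -212 to -194 and one at -107 to -89. Only exact letters were counted, so a similar stretch with other letters was not. The match of Herpud1 spanned -52 to -42. The letters ACGTG, the core bound by Xbp1, matched in Hspa5, Calr, Pdia6, Dnajb9 and Herpud1, against 18.5% of all genes, and in Herpud1 that match overlapped the second element. No searched letters were found in these windows of Xbp1, Pdia4 and Sdf2l1. For 7 of the 10 windows, the 20 bases at the start were found in GENCODE transcripts. The start of the other windows rests on RefSeq alone. A match is a description of the letters and was not tested for binding.

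**Figure D1:**
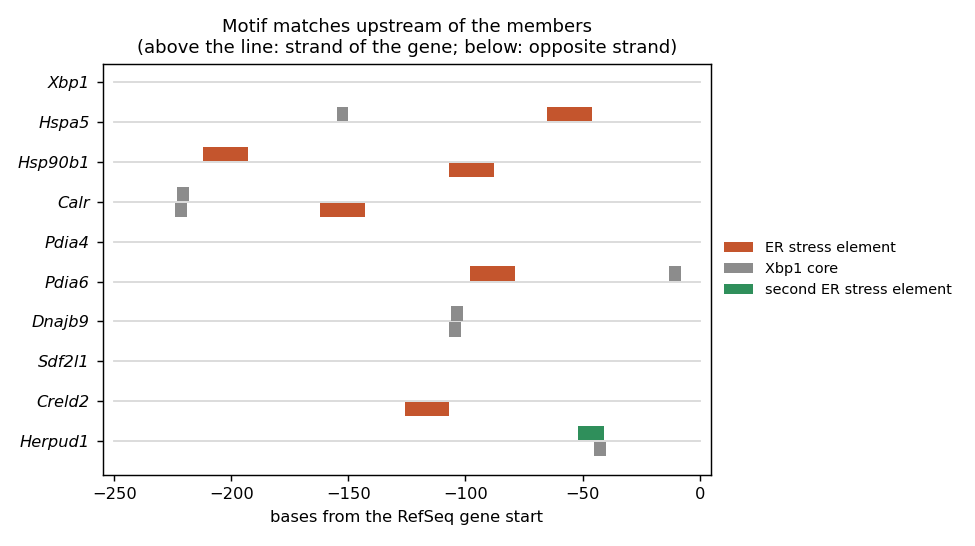
Matches to the searched letters in the 250 bases before the RefSeq start of each of the 10 genes, with the distance from the start in bases on the x axis; bars above a line read on the strand of the gene and bars below it on the opposite strand. The ER stress element is upstream of 5 genes and the second form upstream of Herpud1 only, while Xbp1, Pdia4 and Sdf2l1 have no match.

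All entries of the tables had been called different between the lines by the authors, with q-values up to 0.05, so that a listed gene differs by selection and an absent gene says nothing about equality. Of the fibroblast markers, 9 of 11 were listed at 0 min, with a summed level of 2590 in WT against 3813 FPKM in S51A, and they did not share a direction. Of these 9, 6 were higher in S51A, among them Col1a1, at 241 in WT against 1160 FPKM in S51A, and Col1a2, at 155 against 1097.5 FPKM. The other 3 were lower, with Vim at 1872 in WT against 1075 FPKM in S51A, Dcn at 54.2 against 8.88 FPKM and Thy1 at 23.6 against 10.6 FPKM. Krt19, the 1 listed gene of 5 epithelial markers, was higher in S51A at each time, at 6.06 in WT against 8.17 FPKM in S51A at 0 min, 5.21 against 10.1 FPKM at 15 min and 8.40 against 21.7 FPKM at 120 min. Of 5 macrophage markers, 2 were listed at 0 min and 1 at each later time, with summed levels of at most 4.09 FPKM in either line. None of the 4 endothelial or 4 plasma cell markers was listed at any time. The part of these markers in the results was not tested. Eif2s1, which encodes eIF2α, was at 91.8 in WT against 45.3 FPKM in S51A at 0 min, a level that does not check a single amino acid replacement.

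Xbp1 RNA was higher in S51A than in WT at every time, and had the largest ratio of the listed members at 0 and 15 min. Xbp1 (chromosome 11, 5520641 to 5525993) was at 16.9 in WT against 45.9 FPKM in S51A before treatment, a 2.71-fold difference. At 15 min it was at 14.1 in WT against 45.3 FPKM in S51A, a 3.20-fold difference. At 120 min it was at 12.6 in WT against 23.8 FPKM in S51A, a 1.89-fold difference. The S51A level at 120 min was 1.93-fold below that at 0 min, while the level in WT differed less over time. In the authors' deposited table, Xbp1 had the lowest q-value listed at each time, 0.000118, 0.000102 and 0.000198. That lowest value was shared by 4905 of 7555, 5803 of 8308 and 3041 of 6119 entries, so it does not set Xbp1 apart. Its log2 ratio was exceeded by 1045, 890 and 1794 listed genes at 0, 15 and 120 min, so a ratio of this size was common between these lines.

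The abundant chaperones of the ER lumen were higher in S51A in each table that lists them. Wherever a pair of levels is given, WT stands first. Hsp90b1 encodes Grp94, the ER member of the Hsp90 family (chromosome 10, 86690841 to 86705444). It was at 564 in WT against 1067 FPKM in S51A at 0 min, 572 against 1089.9 FPKM at 15 min, and 626 against 1269 FPKM at 120 min. Its ratio as deposited was 1.89-fold, 1.91-fold and 2.03-fold, close to the same value over the 3 times. Less the median log2 ratio of all listed genes at each time, the log2 ratio of Hsp90b1 was 1.2, 1.13 and 0.62, smaller at 120 min. Calr encodes calreticulin, a calcium-binding chaperone of newly made glycoproteins (chromosome 8, 84842088 to 84846931). It was at 648 in WT against 949 FPKM in S51A at 0 min, 605 against 989 FPKM at 15 min, and 709 against 1160.1 FPKM at 120 min. The folds of Calr were 1.46, 1.64 and 1.64, smaller than those of Hsp90b1 at each time. Hspa5 encodes BiP, the ER member of the Hsp70 family, which binds the stress sensors in unstressed cells (chromosome 2, 34772090 to 34776529). It was listed at 15 min only, at 519 in WT against 719 FPKM in S51A, a 1.39-fold difference. The q-value of Hspa5, 0.000102, was the lowest of that deposited table, a value shared by 5803 of 8308 entries. Whether the lines differed in Hspa5 at 0 and 120 min cannot be read from the tables. The RefSeq gene Rabepk overlaps the Hspa5 position, and the sources used here do not say whether counting used strand.

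The disulfide isomerase genes Pdia6 and Pdia4 were also higher in S51A. As deposited, the ratio of Pdia6 was larger at 120 min while that of Pdia4 was smaller. Pdia6, an isomerase known to act with BiP, was listed at chromosome 12, 17266595 to 17324730. Its level was 163 in WT against 236 FPKM in S51A at 0 min, 151 against 256 FPKM at 15 min, and 174 against 365 FPKM at 120 min. The fold between the lines was 1.44, 1.69 and 2.10 in that order, and most of the difference over time was in S51A. Less the median log2 ratio of all listed genes at each time, the log2 ratio of Pdia6 was 0.8, 0.96 and 0.65. On that scale it was not larger at 120 min. The deposited position of Pdia6 extends past its RefSeq end at 17284785 and overlaps Atp6v1c2, so some reads may belong to that gene. Pdia4, an isomerase with several thioredoxin-like domains (chromosome 6, 47796141 to 47813512), was at 109 in WT against 184 FPKM in S51A at 0 min. It was at 114 in WT against 185 FPKM in S51A at 15 min, and at 122 in WT against 165 FPKM in S51A at 120 min. The fold of Pdia4 was 1.68, 1.62 and 1.36. In the authors' deposited table for 120 min its q-value was 0.0168, the highest of any member at any time.

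Creld2, an ER protein with EGF-like domains (chromosome 15, 88819646 to 88826681), was listed only after peroxide. It was at 54.6 in WT against 68.1 FPKM in S51A at 15 min, a 1.25-fold difference that was the smallest of any listed member. At 120 min it was at 60.1 in WT against 106 FPKM in S51A, a 1.77-fold difference. Less the median log2 ratio of all listed genes, the log2 ratio of Creld2 was 0.52 at 15 min and 0.41 at 120 min, so it was not larger then. From 15 to 120 min the level in S51A was 1.56 times as high, against 1.10 times in WT. These tables may have been normalized separately, so a level set across times is a description, with no test.

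Dnajb9 encodes ERdj4, a J-domain partner of BiP that takes part in ER-associated degradation (chromosome 12, 44205897 to 44210068). It had the lowest level of the listed members, at 6.06 in WT against 11.6 FPKM in S51A at 0 min and 6.28 against 12.1 FPKM at 15 min. At 120 min it was at 11.0 in WT against 18.6 FPKM in S51A. Both lines thus had a higher level at 120 min, by 1.82-fold in WT and 1.61-fold in S51A, and the fold between the lines was 1.91, 1.93 and 1.69.

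Herpud1, a membrane component of the complex that moves misfolded proteins out of the ER for degradation, was the only member with calls in both directions. Herpud1 (chromosome 8, 94386500 to 94395358) was at 26.4 in WT against 36.3 FPKM in S51A at 0 min, and at 24.3 in WT against 37.5 FPKM in S51A at 15 min. At 120 min it was at 32.9 in WT against 15.5 FPKM in S51A. It was thus 1.38-fold and 1.55-fold higher in S51A at the earlier times and 2.13-fold lower in S51A at 120 min. The authors' deposited table gave q-values of 0.000644, 0.000102 and 0.000198 for these calls. The level in S51A at 120 min was 2.35-fold below that at 0 min, whereas the level in WT was 1.25 times that at 0 min. Of 2086 genes listed as higher in S51A at 0 min and listed again at 120 min, 335 (16.1%) were then lower, so this pattern was shared by other genes. The change between times was not tested.

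**Figure D2:**
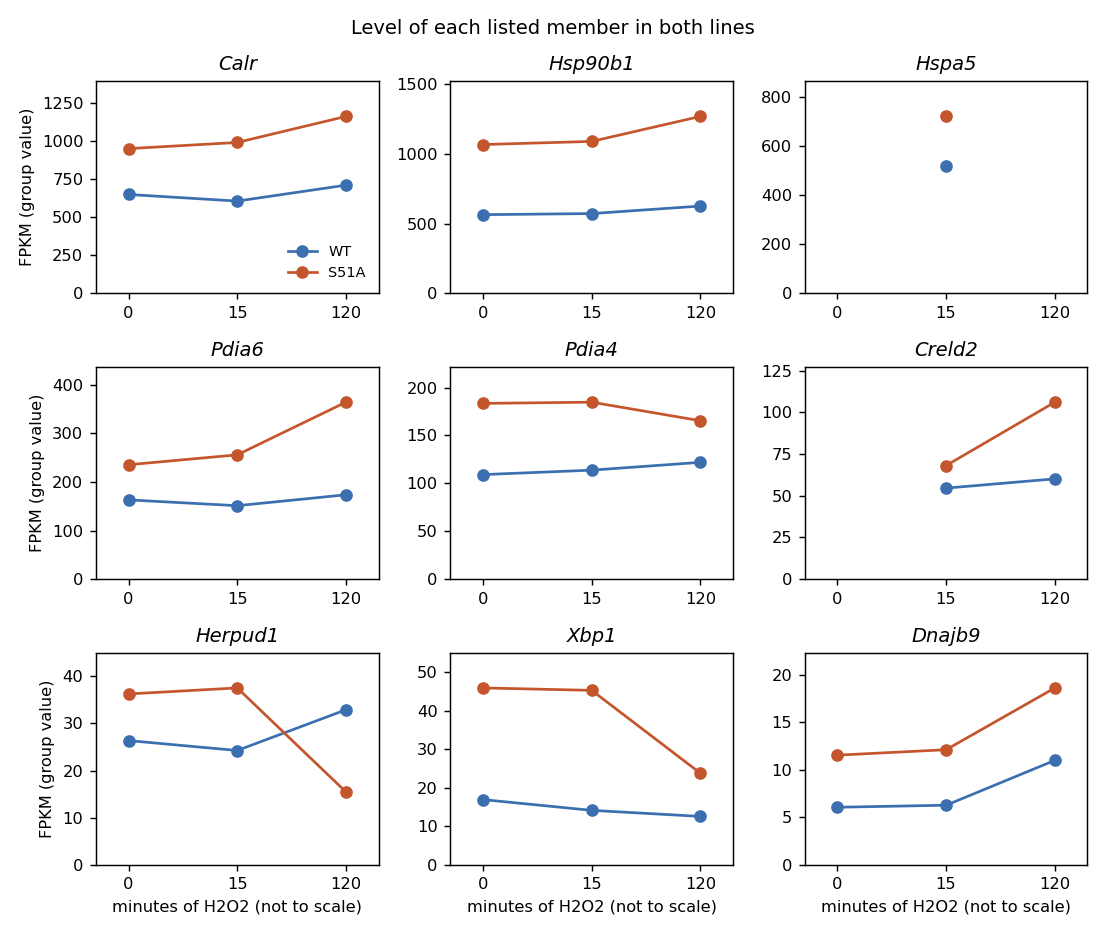
Group FPKM (y axis, linear, from 0) of the 9 listed genes at 0, 15 and 120 min of peroxide (x axis, not to scale) in WT (blue) and S51A (orange); each point is the authors' 1 value for a group, without an error, and times at which a gene is not listed are left blank. S51A lies above WT in every panel except for Herpud1 at 120 min, at 15.5 FPKM against 32.9 FPKM.

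Counted over members, 7 of 7 listed genes were higher in S51A at 0 min, 9 of 9 at 15 min and 7 of 8 at 120 min. Over all listed genes, the share called higher was 49.6% at 0 min, 49.9% at 15 min and 50.9% at 120 min. Of the symbols found in any table, 74.7%, 82% and 60.4% were listed at 0, 15 and 120 min, beside 7, 9 and 8 of the 10 members. The member lower in S51A at 120 min was Herpud1, and 49.1% of all listed genes were lower then. With a minimum fold of 2, only Xbp1 was higher at 0 min, against 22.1% of all listed genes, and only Xbp1 at 15 min, against 20.2%. At 120 min Hsp90b1 and Pdia6 were past that fold, against 26.5%, and Herpud1 was past it in the lower direction, against 20.9%. Most members thus differed by less than 2-fold. In the authors' deposited tables the median log2 ratio of the listed members was 0.75, 0.70 and 0.80 at 0, 15 and 120 min, beside -0.27, -0.20 and 0.41 for all listed genes. Less that median, the log2 ratios of the 7 members higher at 120 min kept their sign but were smaller, from 0.03 for Pdia4 (0.44 as deposited) to 0.65 for Pdia6 (1.06 as deposited), with Calr at 0.30 in place of 0.71 and Dnajb9 at 0.36 in place of 0.77.

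**Figure D3:**
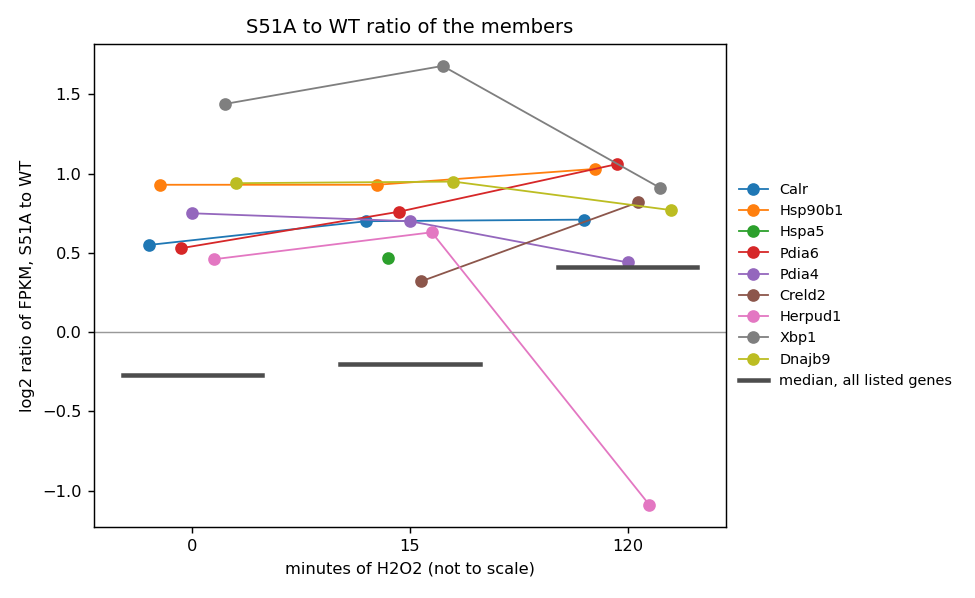
Log2 ratio of FPKM in S51A to WT (y axis) for each listed member at 0, 15 and 120 min (x axis, not to scale, points shifted sideways to separate them), with the median of all listed genes at each time as a dark bar. Members range from 0.46 to 1.44 at 0 min and from 0.32 to 1.68 at 15 min, and Herpud1 is at -1.09 at 120 min.

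Because FPKM is scaled to transcript length, levels may be set side by side between genes. At 15 min, when 9 members were listed, the order in WT was Calr, Hsp90b1, Hspa5, Pdia6, Pdia4, Creld2, Herpud1, Xbp1 and Dnajb9, from 605 FPKM down to 6.28 FPKM. The order in S51A was Hsp90b1, Calr, Hspa5, Pdia6, Pdia4, Creld2, Xbp1, Herpud1 and Dnajb9, from 1089.9 FPKM down to 12.1 FPKM. The lines thus differed in the order of Calr and Hsp90b1 and of Xbp1 and Herpud1. Without values for single samples it cannot be said which neighbours in these orders differ beyond their spread. The 7 members listed at every time summed to 1534 in WT against 2529 FPKM in S51A at 0 min, a 1.65-fold difference. At 120 min they summed to 1687 in WT against 3017 FPKM in S51A, a 1.79-fold difference carried mostly by Hsp90b1 and Calr.

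Within each line, changes over time were described as the log2 of FPKM plus 1 against 0 min, less the median of all genes listed at both times. At 15 min the 7 members lay between -0.25 (Xbp1) and 0.05 (Pdia4) in WT and between -0.04 (Xbp1) and 0.10 (Pdia6) in S51A, where the quartiles of all genes were -0.12 and 0.11 in WT and -0.08 and 0.07 in S51A. At this time Xbp1, Pdia6 and Herpud1 lay below the lower quartile in WT, and Pdia6 lay above the upper quartile in S51A. At 120 min in WT, 6 of the 7 members had values above 0, from 0.19 for Pdia6 to 0.86 for Dnajb9, above the upper quartile of 0.13, and Xbp1 was at -0.30. At 120 min in S51A the chaperone genes Hsp90b1, Calr, Pdia6 and Dnajb9 were at 0.43, 0.47, 0.81 and 0.82, while Xbp1 was at -0.74 and Herpud1 at -1.00. The quartiles of all genes in S51A were then -0.41 and 0.45, wider than in WT. Pdia4 was at 0.03 in S51A, and its sign depends on the centring, being -0.15 without it.

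Between 0 and 120 min the ratio of the lines shifted with transcript length across genes. Over 4102 genes with a coding GENCODE transcript, Pearson r between this change and log2 length was -0.65, a description across genes that share the same libraries. The median change in log2 ratio was 0.55 for the 1368 shortest genes (371 to 2486 bases), -0.07 for the next 1367 and -0.59 for the 1367 longest. Xbp1, Calr, Pdia4, Pdia6, Dnajb9 and Herpud1, with longest transcripts of 1952 to 2461 bases, belong to the shortest group, and Hsp90b1, with 2825 bases, to the next. The log2 ratio of Pdia6 changed by 0.53, near the median of the shortest group, and that of Calr by 0.16. Xbp1 had a change of -0.53, below which lay 6.07% of the shortest group. Herpud1 had a change of -1.55, below which lay 10 of the 1368 genes (0.731%). The part of transcript length in the ratios at 120 min was not tested.

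**Figure D4:**
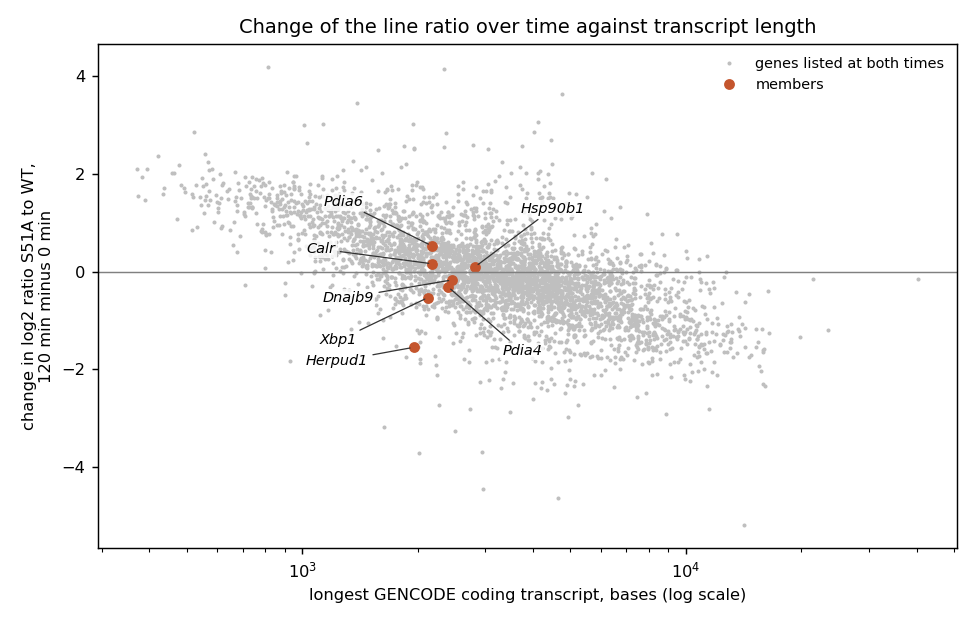
Change in the log2 ratio of S51A to WT from 0 to 120 min (y axis) against the length of the longest coding transcript (x axis, bases, log scale) for 4102 genes listed at both times (grey) and the 7 members among them (orange). The grey points slope downwards with length (r = -0.65), and Herpud1, at -1.55, lies under most genes of its length.

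Other genes of the pathway were described from 9 lists, as counts among the genes listed as called. The count of each list stands beside 49.6%, 49.9% and 50.9% of all listed genes, which were higher in S51A at 0, 15 and 120 min. These shares are over genes of every transcript length. From 0 to 120 min the median change in log2 ratio was 0.55 for the shortest genes and -0.59 for the longest. The part of transcript length in the list counts at 120 min was not tested. Genes for COPII coats and for transport between ER and Golgi were higher in S51A for 18 of 18 listed genes at 0 min, 17 of 17 at 15 min and 11 of 11 at 120 min. Their median log2 ratio was 0.80 (all listed genes -0.27), 0.70 (-0.20) and 0.85 (0.41). Sec23a, a coat subunit, was at 20.1 in WT against 50.9 FPKM in S51A at 0 min, and Golgb1, which encodes the Golgi protein giantin, was at 5.90 against 14.5 FPKM. Genes that fold and modify collagen in the ER were higher for 10 of 11, 10 of 11 and 5 of 6 at the 3 times. Among them, Mia3, which helps load collagen for export, was at 7.41 in WT against 31.3 FPKM in S51A at 0 min, and the prolyl hydroxylase subunit gene P4ha3 at 2.53 against 6.11 FPKM.

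Further ER chaperones and oxidoreductases were higher for 12 of 18, 13 of 18 and 13 of 14 listed genes, and 6 were lower at 0 min. These are shares of 66.7%, 72.2% and 92.9%, beside 49.6%, 49.9% and 50.9% of all listed genes. At 120 min their median log2 ratio was 0.995, beside 0.41 for all listed genes. Creld1, a relative of Creld2, was at 1.36 in WT against 12.4 FPKM in S51A at 0 min, and the prolyl isomerase gene Fkbp14 at 4.08 against 27.5 FPKM. Genes of ER-associated degradation, the process in which Herpud1 acts, were higher for 11 of 16, 10 of 14 and 6 of 7. The ubiquitin ligase gene Syvn1, whose product binds Herpud1, was at 10.5 in WT against 24.6 FPKM in S51A at 0 min, while the conjugating enzyme gene Ube2j2 was lower in S51A, at 18.0 in WT against 5.74 FPKM in S51A. At 120 min Nploc4 was the 1 listed gene of this list that was lower in S51A, at 49.9 in WT against 20.8 FPKM in S51A, a name chosen after its values were seen.

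Translocon and signal peptidase genes, which bring proteins into the ER, were higher for 7 of 16 at 0 min and 9 of 18 at 15 min, shares of 43.8% and 50% beside 49.6% and 49.9% of all listed genes. At 120 min 13 of 17 were higher, 76.5% beside 50.9%, a share not matched for transcript length. The signal peptidase gene Spcs3 was at 72.5 in WT against 140.1 FPKM in S51A at 0 min, and Srp14, a part of the signal recognition particle, was lower in S51A, at 209 in WT against 106 FPKM in S51A. By 120 min Srp14 was higher in S51A, at 185 in WT against 320 FPKM in S51A. Oligosaccharyltransferase genes were higher for 4 of 6, 7 of 10 and 7 of 9. Stt3b, which encodes a catalytic subunit, was lower in S51A, at 107 in WT against 60.5 FPKM in S51A at 0 min. The subunit gene Ostc was at 99.0 against 158 FPKM.

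The sensors of the unfolded protein response differed in direction from each other. The list of sensors and their relatives was higher for 5 of 6, 5 of 8 and 4 of 6 listed genes, led by the membrane-bound factor genes Creb3l1, at 6.11 in WT against 52.0 FPKM in S51A at 0 min, and Creb3l2, at 3.43 against 17.0 FPKM. The 3 sensors themselves, named for their role, were Eif2ak3 (Perk), Ern1 (Ire1) and Atf6. Eif2ak3 was higher in S51A, at 2.81 in WT against 12.2 FPKM in S51A at 0 min and at 2.46 against 8.75 FPKM at 120 min. Ern1, the enzyme that cuts Xbp1 RNA, was listed from 15 min on and was lower in S51A, at 8.63 in WT against 4.11 FPKM in S51A at 15 min and at 7.57 against 2.27 FPKM at 120 min. Atf6 was lower in S51A too, at 10.9 in WT against 7.94 FPKM in S51A at 15 min and at 11.6 against 6.59 FPKM at 120 min. Xbp1 RNA was thus higher in the line in which Ern1 RNA was lower.

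Genes of the Perk arm went mostly the other way. Of these genes, 4 of 16 were higher in S51A at 0 min, 5 of 16 at 15 min and 2 of 13 at 120 min. Over all listed genes the shares were 49.6%, 49.9% and 50.9%. The median log2 ratios of the Perk arm genes were -0.94 (all listed genes -0.27), -0.82 (-0.2) and -0.91 (0.41). Trib3, a pseudokinase induced through Atf4, was at 9.65 in WT against 3.03 FPKM in S51A at 0 min, and Chac1, which degrades glutathione, at 16.8 against 4.41 FPKM. Chaperones of the cytosol and mitochondria were also mostly lower in S51A before and early in treatment, being higher for 3 of 18 genes at 0 min and 3 of 21 at 15 min, and then for 7 of 12 at 120 min. Cct5, a subunit of the cytosolic chaperonin, was at 776 in WT against 298 FPKM in S51A at 0 min, and the small heat shock protein gene Hspb1, higher in S51A, at 13.8 against 41.1 FPKM. These counts are descriptions, and the differences between the lists were not tested.

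**Figure D5:**
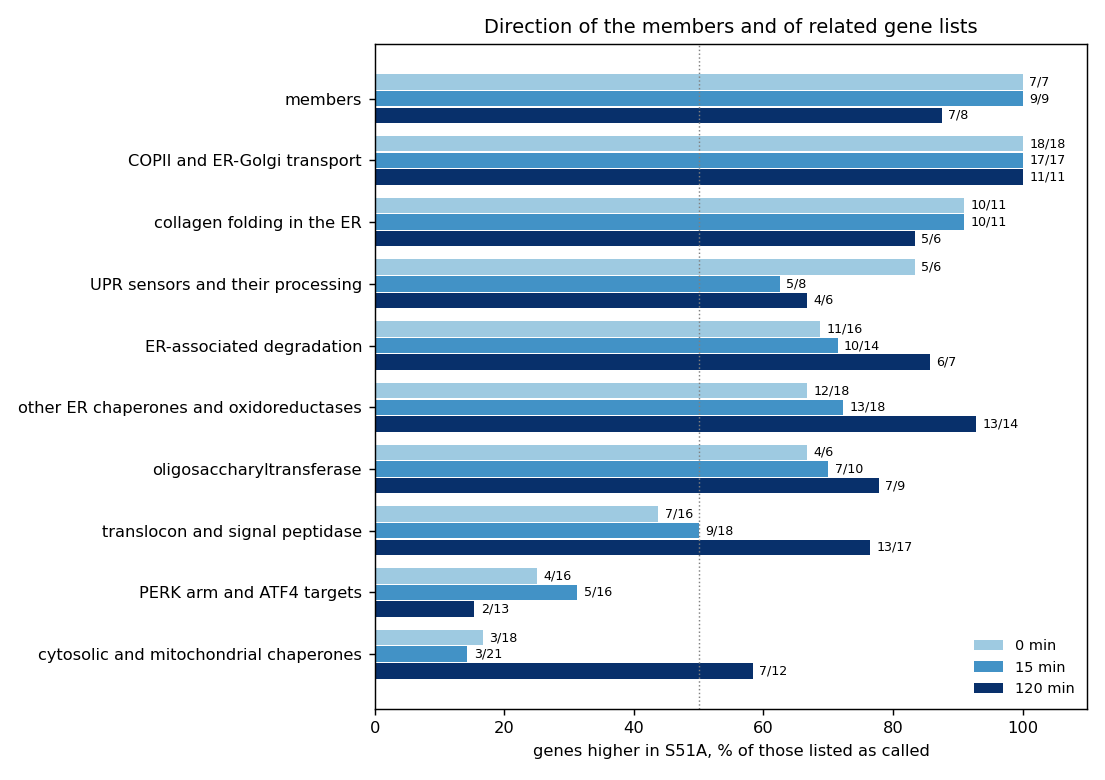
Share of listed genes that were higher in S51A (x axis, %) for the 10 genes of interest ("members") and 9 related lists at 0, 15 and 120 min (light to dark bars), with the number higher over the number listed beside each bar and a dotted line at 50%. COPII and ER-Golgi transport genes are at 18 of 18, 17 of 17 and 11 of 11, and Perk arm and Atf4 targets at 4 of 16, 5 of 16 and 2 of 13.

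The genes with a pattern most like that of Xbp1 were sought over the 6 group values, among 3271 other genes that were listed in all 3 tables, reached 5 FPKM in at least 1 group and were at 0 in none. Likeness was the Euclidean distance between log2 FPKM values after the mean of each gene was subtracted. The nearest were Trp53bp2 (distance 0.23), Mtss1 (0.24), Tmem175 (0.29), Gpr153 (0.32) and Pgpep1 (0.32). Trp53bp2, which encodes a p53-binding protein, had WT levels of 3.32, 3.34 and 2.58 FPKM at 0, 15 and 120 min. Its S51A levels were 9.92, 9.78 and 5.54 FPKM. No member was among the nearest genes: Hsp90b1, the closest member, ranked 708 at a distance of 1.15, and Herpud1 ranked 1202 at 1.76. This distance takes in the size of the difference between the lines as well as the course over time. The chaperone genes listed at every time shared the direction of the Xbp1 difference. Without centring, the S51A levels of Hsp90b1, Calr, Pdia6 and Dnajb9 were higher at 120 min than at 0 min, while that of Xbp1 was lower. The level of Pdia4 was lower without centring, a sign that depends on the centring. These changes over time were not tested. No search was made for Hspa5, which was not listed at every time.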

How the data were processed

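Directional libraries of poly(A) RNA were sequenced single-end, per the labels' protocols. STAR, Cufflinks, Cuffdiff and mm10 are named in the submitters' processing notes, without versions or roles, and the sources used here do not name the annotation. Per the file headers, the authors deposited the log2 FPKM of both lines with a q-value and a log2 ratio, at 1 value for each group. All 7555, 8308 and 6119 entries at 0, 15 and 120 min are marked significant, and their log2 ratio equals the difference of the FPKM columns within 0.01. Counts and depth were not used here.

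FPKM was taken back to the linear scale with Python 3.11.15 and pandas 2.3.3, and folds are ratios of group values. No test across samples could be made. The call of a gene is that of the authors. Entries with repeated, paired or date-like symbols were left out of lists. Starts had 1 added, after which 7 of 9 members matched RefSeq at both ends. Changes over time used a pseudocount of 1, and a fold on that scale understates changes of low genes. The searches for like genes and for promoter letters were tested on simulated data. The members and lists were chosen with earlier results of these data known. Named genes are the 10 members, from each list the 2 with the largest absolute log2 ratio at 0 min and at least 5 FPKM in the higher line, Eif2s1, and the 5 genes nearest to Xbp1. Outside this rule, the 3 sensor genes, Nploc4, the cell type markers and the other genes with an ER stress element were named after their values were seen. Alternatives were a minimum fold, a stricter q-value, an FPKM minimum, other pseudocounts and other centring.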

Additional observations from a re-analysis of the deposited data

Results flagged for a closer look

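Herpud1 had opposite calls at different times of treatment. Its log2 ratio of S51A to WT was 0.46 at 0 min, 0.63 at 15 min and -1.09 at 120 min. The difference between these times was not tested, because the tables hold 1 value for each group.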

How the results depend on the processing

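The counts of members higher in S51A, 7, 9 and 7 at 0, 15 and 120 min, became 1, 1 and 2 with a minimum fold of 2, by construction of that minimum. They stayed within 1.5 times with a q-value of at most 0.01 or at least 5 FPKM in the higher line. Centred on all listed genes, the median log2 ratio became 1.02, 0.90 and 0.39 at the 3 times, by the medians subtracted, and kept its sign. Of single members the same centring moved Pdia4 at 120 min most in proportion, from 0.44 to 0.03, and took Xbp1 at that time to 0.50, Creld2 to 0.41 and Herpud1 to -1.50. The median change of the members in S51A from 0 to 120 min, 0.43, was 0.25 without centring and 0.32 when centred on genes of at least 5 FPKM. For Pdia4 in S51A, the change at 15 min was 0.0099 without centring, and at 120 min it was -0.15 without centring and -0.082 when centred on genes of at least 5 FPKM, in each case opposite in sign to the value given. A pseudocount of 0.1 moved none of 28 changes of single members by 0.1 or more on the log2 scale. No paired analysis was possible because the tables hold 1 value for each group, and leaving out replicates was not run for the same reason. Depth is unknown, which limits all values.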

Other observations

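Outside the 10 genes, 30 genes had the ER stress element in the 250 bases before their start. Of these, 7 were listed at 0 min, 5 of them higher in S51A, beside 49.6% of all listed genes. Dnajc3, an ER-resident J-domain protein, was at 19.0 in WT against 30.7 FPKM in S51A, and the ubiquitin ligase gene Syvn1 was at 10.5 against 24.6 FPKM. Pan2, a deadenylase subunit, was at 5.62 in WT against 15.3 FPKM in S51A, Adcy3, an adenylate cyclase, at 3.61 against 7.73 FPKM, and the mannosyltransferase gene Alg12 at 4.47 against 6.54 FPKM. The 2 lower genes were Canx, which encodes the membrane chaperone calnexin, at 288 in WT against 237 FPKM in S51A, and Zfp57, at 16.6 against 8.75 FPKM. At 15 min 5 of 7 were higher, and at 120 min 2 of 4, with Canx at 331 in WT against 242 FPKM in S51A. Calnexin and calreticulin bind the same kind of glycoprotein, and their genes were called in opposite directions at all 3 times. The authors' deposited q-values for Canx were 0.0352, 0.000199 and 0.0396 at 0, 15 and 120 min. Its calls at 0 and 120 min were thus near the limit of 0.05. These genes were named after their values were seen, and 7 genes are too few to set apart from the rest.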
